A study of Homo sapiens with 12 samples.

Results

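The unfolded protein response and the amino acid response were followed through 34 genes: 5 that encode the transcription factors of both responses and the pseudokinase TRIB3, 9 for chaperones and folding enzymes of the endoplasmic reticulum (ER), 3 for ER-associated degradation, 6 for serine and one-carbon enzymes with PCK2, 4 for asparagine synthetase and amino acid transporters, and 7 for tRNA synthetases. Members were matched by their single gene symbol in the array annotation, with the older names of the synthetases accepted, and each gene was read by its probe set of highest mean signal. All 34 were on the array, out of 11963 genes with such a probe set, and they had 56 single-symbol probe sets together. Of the members, 33 passed the signal filter, as did 8124 of all genes. DNAJC3, a co-chaperone that restrains the kinase PERK, stayed under it with signals of 4.71 to 21.2 and was not tested.

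When unfolded proteins build up in the ER, the sensors PERK, IRE1 and ATF6 slow translation, splice XBP1 mRNA and release a transcription factor, and genes for chaperones and degradation are switched on. Lack of amino acids acts through the kinase GCN2, which like PERK phosphorylates eIF2 alpha, so that ATF4 is translated and drives genes for amino acid synthesis, uptake and tRNA charging. Both branches meet at ATF4 and its partner CHOP, and tumour cells are known to draw on them.

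RNA came from RD cells, an established line from an embryonal rhabdomyosarcoma, a childhood tumour of the skeletal muscle lineage. The cells had been transduced with PAX3-FKHR-ER, the fusion transcription factor of alveolar rhabdomyosarcoma fused in turn to an altered ligand-binding domain of the estrogen receptor, or with pK1, the vector without insert. Both were grown in DMEM with serum and antibiotics. They were kept without 4-hydroxytamoxifen (4-OHT), the ligand that switches the receptor domain on, or given 30 nM of it for 24 h, with the vector cells as control for the drug itself. Each of the 4 groups had 3 Affymetrix arrays of total RNA, numbered 1 to 3. The design names 3 cell populations per construct, split into treated and untreated, but the labels do not tie a number to a population or say how the populations were raised, so p-values measure the spread between these arrays, which may be technical. Below, cells labelled PAX3-FKHR-ER are called fusion cells and cells labelled pK1 vector cells, and signals of 3 arrays are given in the order of replicates 1, 2 and 3.

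The 4 arrays of replicate 1 stood apart. The 27 probe sets for spiked-in poly-A RNA had a median signal of 2.33 to 6.17 on them and of 92.8 to 251 on the other 8, and PAX3 read 98.9 and 105 in untreated fusion cells against 41.5 and 30.6 in vector cells in replicates 2 and 3, but 17.6 against 49.4 in replicate 1. An ESR1 probe set, picked after its values were seen, likewise gave 121 and 76.2 against 4.16 and 12.7 in replicates 2 and 3, but 7.5 against 57.0 in replicate 1. For both, the untreated arrays of replicate 1 went against their construct labels, and every direction or count over 3 replicates rests on those labels. Results are therefore given over all 12 arrays and over replicates 2 and 3, where limma was fitted to the pairs of arrays that share construct and number. Of the 8 myogenic markers, DES, MYOD1, MYOG, CHRNA1 and CDH15 passed the filter and MYF5, PAX7 and MYF6 did not. The epithelial, leukocyte and endothelial markers EPCAM, CDH1, KRT19, PTPRC, CDH5 and VWF stayed under the filter, while CD3E and PECAM1 reached medians of 58.9 and 55.9.

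Few of the response genes differed with 4-OHT beyond the spread between replicates. Over 12 arrays, limma called 0 of the 33 members in any of the 5 comparisons at an adjusted p of 0.05, as it called 0% of the 13329 probe sets tested in each. At an unadjusted p of 0.05 it passed 1 member, HSPA5, for 4-OHT in fusion cells, beside 0.465% of probe sets, and 0 members in the other comparisons. The median change of all 34 members with 4-OHT, on the log2(signal + 16) scale used for every change here, was -0.034 in fusion cells, with 14 higher and 20 lower, beside -0.018 over all genes past the filter. In vector cells it was 0.065, with 21 higher and 13 lower, beside -0.03. Within the 3 fusion pairs the members' median was 0.017, -0.15 and -0.0016, so it took no common direction. In RNA from a whole culture, fewer cells with a transcript and less of it per cell cannot be told apart.

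In the paired fit to replicates 2 and 3, 1.40% of the probe sets were called for 4-OHT in fusion cells, and among the 33 members TRIB3 alone was (3.03%). No member was called for 4-OHT in vector cells (0% of probe sets), for the difference between the 2 responses (0.0525%), or between the constructs without (0.00750%) and with 4-OHT (0.158%). At an unadjusted p of 0.05 the 5 comparisons, in this order, passed 3, 2, 6, 2 and 5 members, or 9.09%, 6.06%, 18.2%, 6.06% and 15.2% of 33, beside 11.8%, 5.70%, 9.85%, 9.75% and 13.0% of all probe sets. With the pairs as a block over all 12 arrays, limma again called 0 members. The unadjusted counts were then 4, 3, 2, 3 and 3, or 12.1%, 9.09%, 6.06%, 9.09% and 9.09% of members, beside 6.71%, 6.87%, 4.76%, 7.36% and 6.98% of probe sets.

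**Figure D1:**
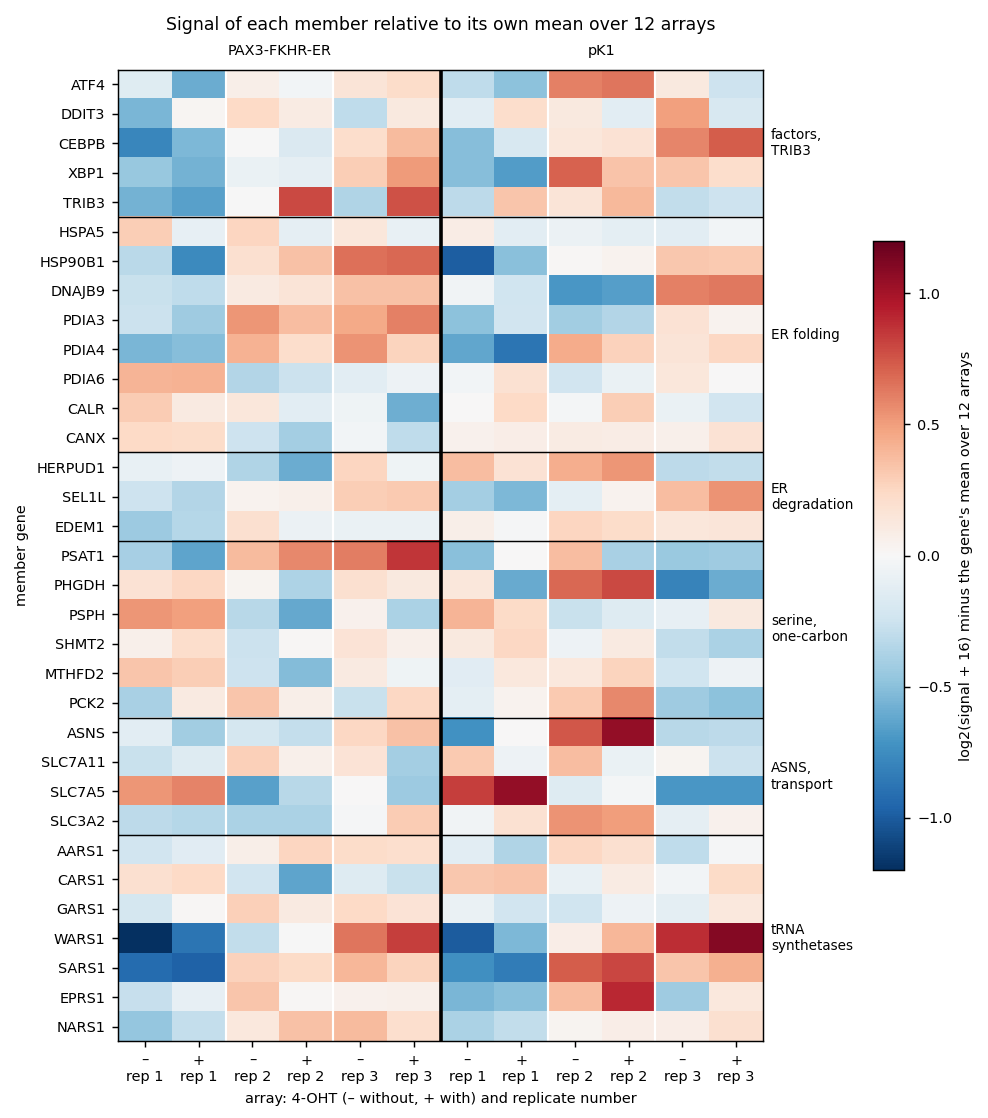
Heat map of log2(signal + 16) of the 33 members past the filter (rows, grouped by role) on the 12 arrays (columns, ordered by construct, replicate number and 4-OHT), each minus the gene's own mean. Arrays that share construct and number look alike whether or not 4-OHT was given, and the 4 arrays of replicate 1 are low for WARS1 and SARS1.

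Among the transcription factors, ATF4, which opens the amino acid branch and is controlled mainly through its translation, read 1133, 1319.6 and 1392 without and 826, 1228 and 1458 with 4-OHT in fusion cells, and 1009, 1915 and 1356 without and 888, 1964 and 1054 with it in vector cells. The groups overlapped, and the highest arrays were both of vector replicate 2. Its change with 4-OHT was -0.16 ± 0.33 (SE) in fusion cells, with a 95% interval of -0.88 to 0.56, and -0.17 ± 0.33 in vector cells. DDIT3, the stress factor CHOP that acts downstream of ATF4, read 99.4, 184 and 120.2 without and 156, 165 and 167 with 4-OHT in fusion cells, and 139, 167 and 221 without and 179, 139 and 131 with it in vector cells. The 3 treated fusion arrays lay close together but inside the range of the untreated ones. Its change was 0.29 ± 0.25 (SE; interval -0.25 to 0.82) in fusion cells and -0.20 ± 0.25 in vector cells. XBP1, whose mRNA is spliced by IRE1 into the form that makes the active factor, read 213, 281 and 369 without and 196, 275 and 432 with 4-OHT in fusion cells, and 204, 498 and 380.1 without and 182, 382 and 348 with it in vector cells. A probe set signal does not tell the spliced from the unspliced form. XBP1 was lower with 4-OHT in each of the 3 vector pairs, with changes of -0.15, -0.37 and -0.12, and did not pass the test. CEBPB, a leucine zipper factor of both responses, ranged from 235 to 699, with its 4 lowest signals on the arrays of replicate 1.

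TRIB3, a pseudokinase gene switched on by ATF4 and CHOP that dampens both ATF4 and AKT signalling, had the largest change with 4-OHT of any member in fusion cells. Its signals were 115, 177 and 135 without and 107, 319 and 312 with 4-OHT in fusion cells, and 139.7, 199 and 141 without and 228, 237 and 147 with it in vector cells. The treated fusion arrays of replicates 2 and 3 were the highest of all 12, while the treated fusion array of replicate 1 was the lowest. In replicates 2 and 3 TRIB3 rose from 156 ± 29.8 (SD, n = 2) to 315 ± 4.62 (SD, n = 2) in fusion cells, a change of 0.96 ± 0.15 (SE; limma adjusted p = 0.0221, higher in both pairs). In vector cells the change there was 0.15 ± 0.15, and the difference of the responses, 0.81 ± 0.22, did not pass (adjusted p = 0.252). Over 12 arrays the fusion change was 0.61 ± 0.37 (SE without pairing). With the pairs as a block its SE was 0.21 and its limma adjusted p 0.651, and in replicate 1 the change was -0.087. The call rested on 2 pairs and 2 residual degrees of freedom, and it was lost without the signal filter (adjusted p = 0.0872), without the intensity trend (0.102), without pair 2 (0.220) and without pair 3 (0.238).

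**Figure D2:**
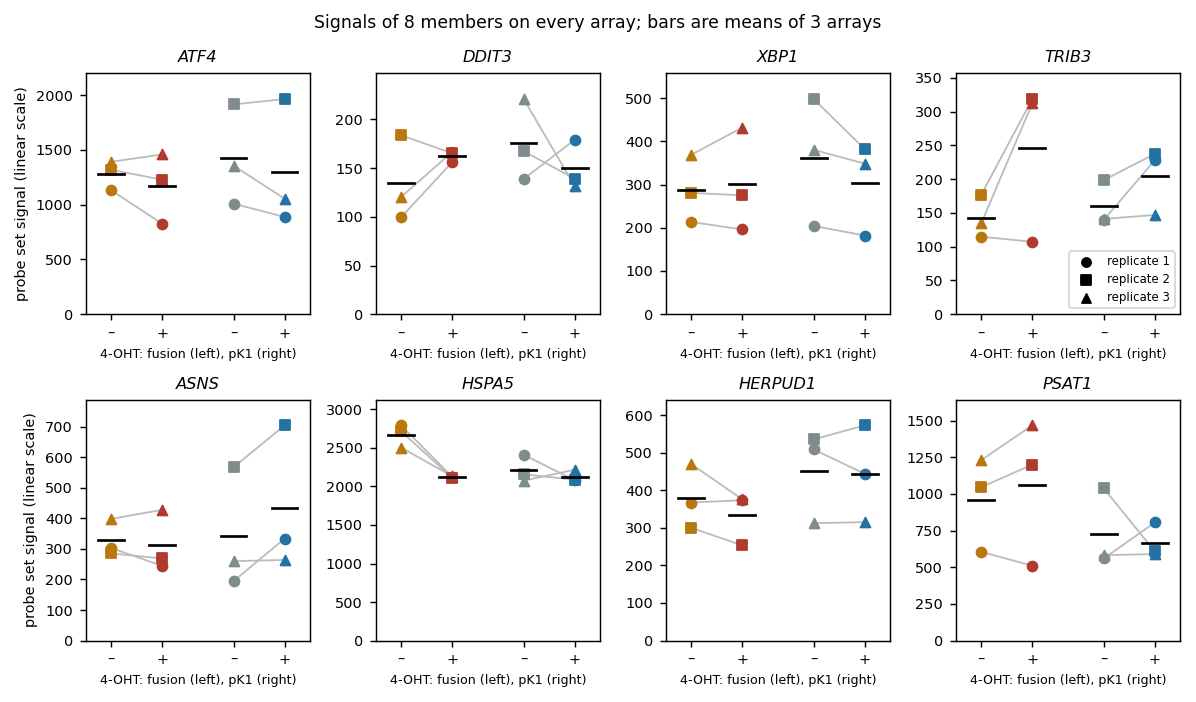
Probe set signals, on a linear scale from 0, of 8 members on every array, with grey lines joining arrays of the same construct and replicate number and black bars at the mean of 3 arrays. TRIB3 is higher with 4-OHT in 2 of the 3 fusion pairs, HSPA5 is lower in all 3, and for ATF4 and ASNS vector replicate 2 lies above the rest in both treatments.

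Among the ER chaperones and folding enzymes, HSPA5 separated by group. HSPA5, the gene of BiP, the main ER chaperone and the classical marker of the unfolded protein response, read 2793, 2716 and 2505 without and 2126, 2114 and 2133 with 4-OHT in fusion cells, and 2411, 2158 and 2076 without and 2081, 2087 and 2218 with it in vector cells. All 3 untreated fusion arrays lay above every other array, and the treated fusion arrays lay within the range of the vector arrays. The group means were 2671 ± 149 (SD, n = 3) without and 2124 ± 9.68 (SD, n = 3) with 4-OHT in fusion cells, and 2215 ± 175 (SD, n = 3) and 2129 ± 77.4 (SD, n = 3) in vector cells. The fusion change was -0.33, lower in 3 of 3 pairs (changes of -0.39, -0.36 and -0.23). Without pairing its SE was 0.13 and its unadjusted limma p 0.0291. With the pairs as a block the SE was 0.094 and the limma adjusted p 0.633, and in replicates 2 and 3 the adjusted p was 0.357. The fusion change did not pass the adjusted test. Neither did the difference from the vector response, at -0.27 ± 0.19 (SE without pairing), which was -0.11 after quantile normalization. The unadjusted p of the fusion change was 0.0585 after quantile normalization, 0.0612 with equal medians, 0.0703 without the intensity trend and 0.0591 with the 2 groups alone. Probe sets whose 3 treated and 3 untreated fusion arrays do not overlap made up 1.70% of those tested in the higher and 1.70% in the lower direction. HSPA5 was the 1 member with its brightest probe set among them (0 were higher). The pattern of all 3 untreated fusion arrays above the other 9, picked out after the values were seen, was shared by 0.173% of probe sets. Both readings use the same untreated fusion arrays.

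Several promoters of this group, that of HSPA5 included, carry a known stress element, printed here with its surroundings. The ER stress element, the site through which ATF6 and XBP1 act, was searched on both strands as CCAAT, 9 bases of any kind, then CCACG, in the 250 bases before and 50 after each start in the RefSeq promoter table of GRCh38.p14, which held 30 of the 34 members. It occurred in 5 of the 8 chaperone and folding genes with a promoter (CALR, CANX, HSP90B1, HSPA5 and PDIA6) and in XBP1, 6 members together, and in 0.0916% of all 27305 genes. With the base before the last left free, SEL1L was the 7th, beside 0.454% of genes. The stretches below run 5′ to 3′ along the gene with the element in capitals, and in CALR and the second of HSP90B1 it is read from the other strand. In order they lie at chr9:125241371-125241429 (minus strand), chr12:103930196-103930254 and chr12:103930301-103930359 (plus), chr19:12938364-12938422 (plus), chr5:179698758-179698816 (plus), chr2:10812833-10812891 (minus) and chr22:28800583-28800641 (minus), all wholly upstream of the start. A match is a description of the letters only. Of the 6 carriers, read by their brightest probe sets, HSPA5 alone separated by group as given above. A dimmer CANX probe set was also lower with 4-OHT without overlap in fusion cells, at 782, 701 and 773 without and 655, 575 and 636 with it. Another dimmer CANX set overlapped and rose in pair 2, at 1577, 838 and 1328 without and 1125, 950 and 1060 with 4-OHT.
HSPA5: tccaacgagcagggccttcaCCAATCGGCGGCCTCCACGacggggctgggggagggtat
HSP90B1 first: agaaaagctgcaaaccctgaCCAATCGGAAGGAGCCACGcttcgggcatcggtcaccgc
HSP90B1 second: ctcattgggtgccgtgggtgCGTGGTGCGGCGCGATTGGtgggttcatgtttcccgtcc
CALR: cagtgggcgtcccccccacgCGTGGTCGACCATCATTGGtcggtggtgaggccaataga
CANX: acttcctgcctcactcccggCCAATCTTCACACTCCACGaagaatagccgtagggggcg
PDIA6: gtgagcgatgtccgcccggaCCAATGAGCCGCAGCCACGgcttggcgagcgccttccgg
XBP1: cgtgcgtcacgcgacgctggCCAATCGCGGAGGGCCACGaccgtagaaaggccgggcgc

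CALR, the gene of the lectin chaperone calreticulin, read 1331, 1179 and 1031 without and 1156, 979.7 and 711 with 4-OHT in fusion cells, and 1076, 1058 and 1013 without and 1269, 1323 and 914 with it in vector cells. It was lower with 4-OHT in 3 of 3 fusion pairs, with changes of -0.20, -0.26 and -0.53, while 2 of 3 vector pairs were higher. The fusion change was -0.33 ± 0.22 (SE) and did not pass. The dimmer CALR probe sets gave 0.21, in the other direction, and -0.20. The brightest probe sets of CALR, PDIA6 and HSP90B1 are of a kind that can also bind related transcripts. HSP90B1, the gene of the ER form of HSP90, read 648, 935 and 1295 without and 472, 1042 and 1325 with 4-OHT in fusion cells, and 403, 826 and 1025 without and 573, 838 and 1015 with it in vector cells. Its 4 lowest signals were those of replicate 1, and in replicates 2 and 3 each fusion array was above the vector array of the same number and treatment. A dimmer HSP90B1 probe set read 315 and 381 in fusion against 457 and 399 in vector replicates 2 and 3 without 4-OHT. With 4-OHT it read 353 and 144 against 263 and 416. PDIA3, a disulfide isomerase that works with calreticulin and calnexin, read 714, 1239 and 1180.2 without and 635, 1111 and 1311 with 4-OHT in fusion cells, and 603, 636 and 970.2 without and 727, 668 and 884 with it in vector cells. In replicates 2 and 3 all 4 fusion arrays lay above all 4 vector arrays, a difference of 0.61 ± 0.20 (SE) without and 0.64 ± 0.20 with 4-OHT, neither past the adjusted threshold (0.419 and 0.268). Shares of all probe sets with such an order in replicates 2 and 3 were not computed, here or for other members. DNAJB9, a co-chaperone of BiP, read 250.1, 330.1 and 394 without and 245, 341 and 393 with 4-OHT in fusion cells, and 296, 182 and 473 without and 257, 187 and 482 with it in vector cells. Treated and untreated arrays of a pair lay close together, whereas vector replicates 2 and 3 differed by 1.30 on the log2 scale. CANX, the membrane-bound partner of calreticulin, ranged from 1526 to 2396, PDIA4 from 346 to 946 and PDIA6 from 1285 to 2196. CANX was lower in 3 of 3 fusion pairs and PDIA6 higher in 3 of 3, by at most 0.09. The dimmer PDIA6 probe sets did not give 1 direction. One was lower in all 3 fusion pairs, at 1003, 658 and 799 without and 991, 565 and 697 with 4-OHT. Another was mixed, and another was higher in all 3.

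The 3 genes of ER-associated degradation followed no common course. HERPUD1, a membrane protein that recruits the degradation machinery, read 367, 299.9 and 469.8 without and 373, 253 and 376 with 4-OHT in fusion cells, and 508, 535 and 312 without and 444, 573 and 315 with it in vector cells. Replicate 3 gave the lowest vector arrays in both treatments, and the fusion change of -0.17 ± 0.29 (SE; interval -0.82 to 0.47) did not pass. EDEM1, which marks misfolded glycoproteins for removal, read 64.9, 109 and 87.7 without and 70.5, 88.8 and 87.7 with 4-OHT in fusion cells, and 99.5, 116 and 104 without and 93.1, 112 and 106 with it in vector cells. With 4-OHT its 3 fusion arrays lay below its 3 vector arrays, as did those of 2.12% of probe sets, and the difference was -0.28 ± 0.20. It was the 1 member of 33 to separate in that comparison; 0 members were higher there (3.18% of probe sets). SEL1L, the adaptor of the ubiquitin ligase HRD1, ranged from 108 to 246.

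The serine and one-carbon enzymes, like most genes past the filter, differed more between replicates than with 4-OHT. PSAT1, the aminotransferase of serine synthesis, read 605, 1046 and 1230.2 without and 510.4, 1199.8 and 1468 with 4-OHT in fusion cells, and 559.6, 1038 and 582 without and 805, 608 and 590.0 with it in vector cells. In replicates 2 and 3 with 4-OHT both fusion arrays were above both vector arrays, a difference of 1.13 ± 0.28 (SE; adjusted p = 0.201), while in replicate 1 the fusion array was the lower. PHGDH, the first enzyme of that path, ranged from 482 to 1487, with vector replicates 2 and 3 apart by 1.44 on the log2 scale. PSPH, the last enzyme, read 170.2, 86.8 and 118 without and 165, 68.6 and 83.5 with 4-OHT in fusion cells, and 156, 91.5 and 105 without and 136, 99.9 and 124 with it in vector cells. Its 4 arrays of replicate 1 were the highest, and all 3 fusion pairs were lower with 4-OHT. MTHFD2, a mitochondrial folate enzyme, read 1007, 667 and 856 without and 976, 548 and 765 with 4-OHT in fusion cells, and 720.3, 868 and 672 without and 871, 959.6 and 759.5 with it in vector cells. It was lower in 3 of 3 fusion pairs and higher in 3 of 3 vector pairs. Such opposite signs, in one sense or the other, occurred in 3.12% of probe sets. The changes of the 3 pairs had an SD of 0.12 in fusion and 0.066 in vector cells. The difference of -0.35 ± 0.34 (SE without pairing) did not pass the limma test (unadjusted p = 0.321 without pairing). The adjusted p was 0.926 with the pairs as a block and 0.500 in replicates 2 and 3. PCK2, the mitochondrial form of phosphoenolpyruvate carboxykinase, read 86.6, 153 and 95.9 without and 129, 125 and 143 with 4-OHT in fusion cells, and 108, 151 and 84.1 without and 123, 184 and 79.7 with it in vector cells. It was higher with 4-OHT in fusion pairs 1 and 3 and lower in pair 2. SHMT2, which makes mitochondrial glycine, ranged from 965 to 1495.

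ASNS, asparagine synthetase and a standard readout of ATF4, read 303, 285 and 398 without and 245, 269 and 428 with 4-OHT in fusion cells, and 195, 568 and 260.1 without and 334, 705 and 264 with it in vector cells. Vector replicate 2 was the highest in both treatments. The change with 4-OHT was -0.092 ± 0.42 (SE; interval -1.02 to 0.84) in fusion cells and 0.35 ± 0.42 in vector cells, where all 3 pairs were higher. SLC7A11, the cystine importer, read 41.0, 68.0 and 60.9 without and 45.8, 55.7 and 35.7 with 4-OHT in fusion cells, and 69.4, 72.9 and 54.5 without and 49.7, 48.9 and 41.6 with it in vector cells. All 3 treated vector arrays lay below the 3 untreated ones, as did those of 3.28% of probe sets. By its brightest probe set, no member lay above (0.983%). The SLC7A11 change in vector cells was -0.37 ± 0.23 and did not pass, and the other 2 SLC7A11 probe sets were higher, at 0.11 and 0.36. SLC3A2, the heavy chain shared by several amino acid carriers, read 164, 156 and 207 without and 161, 157 and 261 with 4-OHT in fusion cells, and 202, 311 and 193 without and 239.8, 302 and 217 with it in vector cells. Its light chain partner SLC7A5 ranged from 208 to 740.2 and was highest on the 4 arrays of replicate 1.

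The element bound by ATF4 with a C/EBP partner was searched as TGATGNAAN on both strands of the same windows. It occurred in 7 of the 30 members with a promoter (AARS1, ASNS, CARS1, GARS1, HERPUD1, NARS1 and SLC3A2), 4 of them tRNA synthetases, and in 4.45% of all genes; the cyclic AMP type core TGACGTCA occurred in 0 members and in 2.25% of genes. The 4 that lie wholly upstream with their stretch are printed: ASNS, 2 tRNA synthetases and, from ER-associated degradation, HERPUD1. They lie at chr7:97872448-97872496 (minus strand), chr7:30594824-30594872 (plus), chr16:56931945-56931993 (plus) and chr16:70289666-70289714 (minus) of GRCh38.p14. The element is in capitals, and in all but ASNS it is read from the other strand.
ASNS: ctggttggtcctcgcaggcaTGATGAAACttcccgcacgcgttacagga
GARS1: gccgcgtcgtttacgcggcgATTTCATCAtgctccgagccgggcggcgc
HERPUD1: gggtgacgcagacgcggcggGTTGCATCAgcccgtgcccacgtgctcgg
AARS1: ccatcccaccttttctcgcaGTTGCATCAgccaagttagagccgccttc

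The tRNA synthetases, which load amino acids onto tRNA, included the member with the widest range between replicate pairs in both constructs. This was WARS1, the tryptophan enzyme, which read 124, 252 and 496 without and 163, 312 and 568 with 4-OHT in fusion cells, and 149, 330.3 and 591 without and 210.4, 416 and 688 with it in vector cells. It was higher with 4-OHT in all 6 pairs of both constructs, by 0.35, 0.29 and 0.19 in fusion and 0.46, 0.32 and 0.21 in vector cells, while the means of the 3 pairs spanned 1.79 and 1.76 on the log2 scale. It passed the adjusted test in neither, and a second probe set gave -0.18 in vector replicates 2 and 3. EPRS1, the glutamate and proline enzyme, read 339, 525 and 429 without and 384, 419 and 432 with 4-OHT in fusion cells, and 278, 538 and 303 without and 287, 785 and 453 with it in vector cells. In vector replicates 2 and 3 its change was 0.54 ± 0.13 (SE; adjusted p = 0.844), and the other 2 EPRS1 probe sets gave -0.52 and 0.034. CARS1, the cysteine enzyme, read 799.7, 592 and 624 without and 825, 444 and 576 with 4-OHT in fusion cells, and 878, 654 and 681 without and 888, 749 and 823 with it in vector cells. With 4-OHT the fusion arrays of replicates 2 and 3 lay below the vector arrays, a difference of -0.62 ± 0.17 (SE; adjusted p = 0.227). A dimmer CARS1 probe set was higher with 4-OHT without overlap in vector cells, at 112, 105 and 121 without and 194, 163 and 174 with it. AARS1, the alanine enzyme, read 684, 846 and 938 without and 729, 965 and 928 with 4-OHT in fusion cells, and 734, 957 and 649.6 without and 622, 921 and 795 with it in vector cells. The glycine, serine and asparagine enzymes GARS1, SARS1 and NARS1 ranged from 1407 to 2030.1, 326 to 1148 and 631 to 1140.2. In vector replicates 2 and 3 the change was positive for 7 of 7 member synthetases, with a median of 0.21 beside 0.0044 over all genes, and 0 of them passed the adjusted test (1 at an unadjusted p of 0.05). Positive changes made up 51.0% of all genes there, and 5.7% of probe sets passed an unadjusted limma p of 0.05. The treated array of vector replicate 2 had an ACTB 3′ to 5′ signal ratio, a measure of RNA quality, of 1.62 against 0.941 untreated. The part of RNA quality in these changes was not tested. In vector replicate 1, AARS1, GARS1 and SARS1 were lower with 4-OHT, at -0.23, -0.15 and -0.10, and over 12 arrays the synthetases' median was 0.09.

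For nearly all members, as for most genes past the filter, replicate numbers differed by more than treated and untreated arrays did. Within fusion cells the range of the 3 pair means was at or above the size of the mean 4-OHT change in 32 of 33 members, HSPA5 being the exception. In vector cells it was in 30 of 33, the exceptions being CANX, DDIT3 and SLC7A11. Ranges below the change occurred in 6.57% and 7.98% of all genes. The median range over members was 0.61 in fusion and 0.54 in vector cells on the log2 scale, beside median changes of 0.098 and 0.12. Over all genes past the filter the median ranges were 0.56 and 0.63, beside median changes of 0.12 and 0.13. Replicate 1 stood out for 10 members: 8 (CEBPB, XBP1, HSP90B1, PDIA4, SEL1L, WARS1, SARS1 and NARS1) were lower on all 4 of its arrays than on the other 8, beside 10.3% of probe sets, and PSPH and SLC7A5 were higher, beside 11.0%. SARS1 averaged 352 ± 26.7 (SD, n = 4) on those arrays and 897 ± 143 (SD, n = 8) on the rest.

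Single pairs stood apart within their construct as well, vector replicate 2 among them. Its 2 arrays were above the other 4 vector arrays for 12 members (ATF4, XBP1, PDIA4, HERPUD1, EDEM1, PHGDH, PCK2, ASNS, SLC3A2, AARS1, SARS1 and EPRS1), 36.4% of the 33 against 20.1% of probe sets, and below them for DNAJB9, PDIA6 and PSPH, against 19.1%. ATF4 was among the 12, while the stress factors DDIT3 and CEBPB and the ATF4 target TRIB3 were not. On the treated one the 3′ to 5′ signal ratio of ACTB, a measure of RNA quality, was 1.62, and on the untreated one 0.941, within the 0.833 to 1.05 of the other arrays. The part of RNA quality in these levels was not tested. Among the other pairs, the fusion arrays of replicate 3 were above the other 4 for 11 members (33.3%) and below for 0. Those of replicate 1 were above for 6 (18.2%) and below for 17 (51.5%). Vector replicate 1 was above for 4 (12.1%) and below for 11 (33.3%). Shares over all probe sets were not computed for these pairs, so their counts cannot be read as particular to the members. Between replicates 2 and 3, 3 members (DNAJB9, PHGDH and ASNS) differed by more than 1 on the log2 scale in vector cells, 9.09% beside 12.1% of all genes, and 0 did in fusion cells, beside 3.29%.

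**Figure D3:**
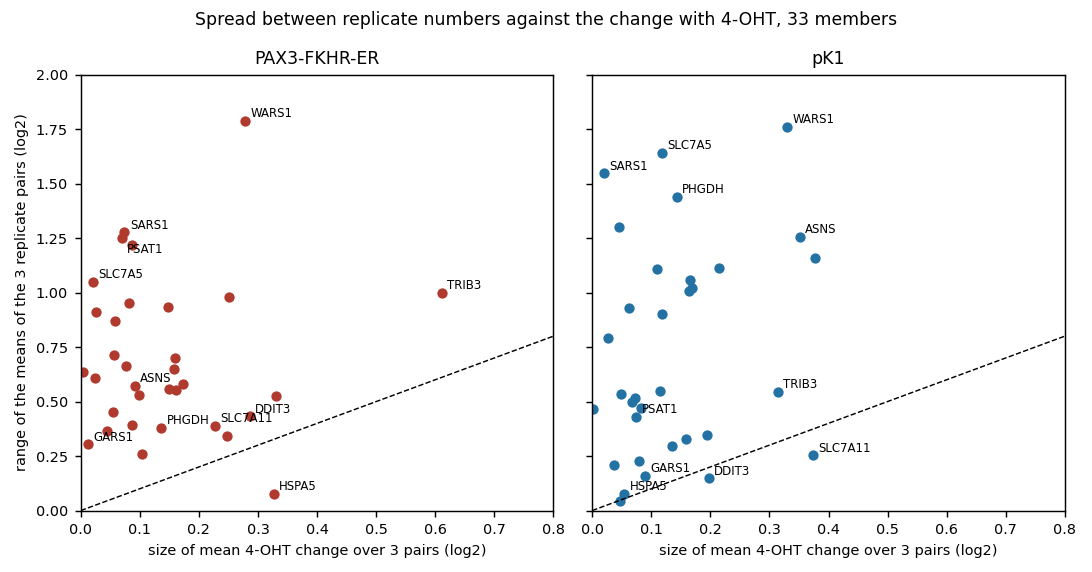
For each of the 33 members, the range of the means of the 3 replicate pairs against the size of the mean change with 4-OHT, both on the log2(signal + 16) scale, in fusion (left) and vector cells (right); the dashed line marks equality. Nearly all points lie above the line, with HSPA5 below it in fusion cells.

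Counted by pairs, 2 members were higher with 4-OHT in all 3 fusion pairs (PDIA6 and WARS1; 13.2% of probe sets) and 6 were lower (HSPA5, CALR, CANX, PSPH, MTHFD2 and SARS1; 14.9%). As shares of 33 members these are 6.06% and 18.2%. In vector cells 8 were higher in all 3 pairs (CEBPB, TRIB3, MTHFD2, ASNS, CARS1, WARS1, EPRS1 and NARS1; 12.6% of probe sets) and 2 were lower (XBP1 and SLC7A11; 16.6%), or 24.2% and 6.06% of members. Members of each direction occurred in both constructs. Of the 8 tested chaperones and folding enzymes, read by their brightest probe sets, 3 were lower in all fusion pairs (HSPA5, CALR and CANX). By the same reading 1 was higher (PDIA6) and 4 went both ways. A dimmer PDIA6 probe set was lower in all 3 fusion pairs, while a dimmer CALR set and a dimmer CANX set were not, as given above.

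**Figure D4:**
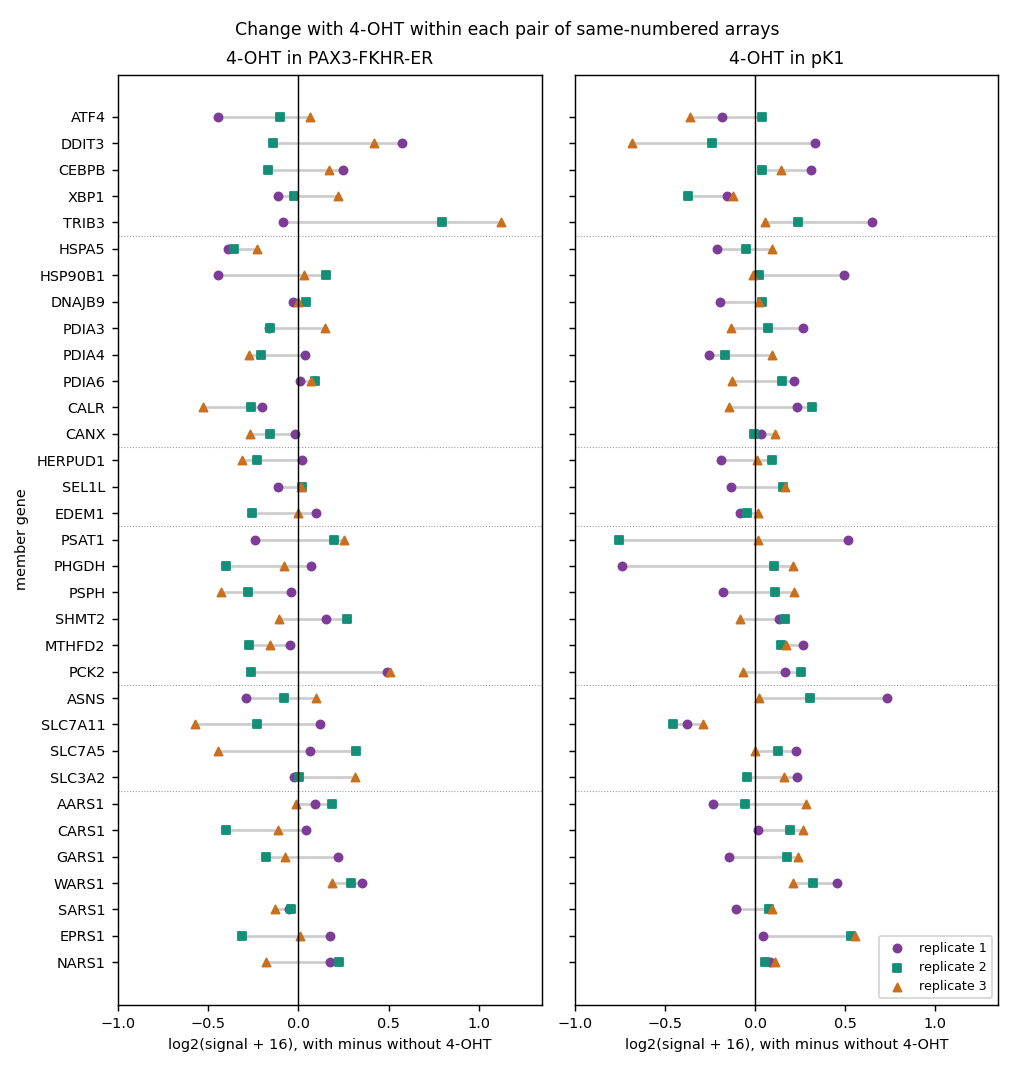
Change with 4-OHT of each of the 33 members within each pair of same-numbered arrays, as log2(signal + 16) with minus without the drug, in fusion (left) and vector cells (right); grey bars span the 3 pairs. TRIB3 shows the widest span in fusion cells, and most members straddle 0 in both constructs.

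Without 4-OHT, HSPA5 was the 1 member whose 3 fusion arrays lay above the 3 vector arrays (2.90% of probe sets), and 0 members lay below (3.08%). The HSPA5 difference was 0.27 ± 0.13 (SE without a block), with a limma adjusted p of 0.661 with the replicate number as a block. The median difference between the constructs over all members was 0.045 without and -0.011 with 4-OHT.

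Other genes of the same pathways, from lists of textbook membership, gave 1 call. For 4-OHT in fusion cells in replicates 2 and 3, the paired limma fit called 1.40% of all probe sets. At an unadjusted p of 0.05 it passed 11.8% of them, which is the share to set beside the counts below. For 4-OHT in fusion cells in replicates 2 and 3, 0 of 15 measured sensors, eIF2 kinases, phosphatase parts and proteases passed (2 lower at an unadjusted p of 0.05), 0 of 17 further ER folding genes (0), 0 of 9 further degradation genes (1 higher), 0 of 4 further serine and one-carbon genes (1 higher) and 0 of 9 further cytosolic tRNA synthetases (1 lower). Among 18 tested further ATF4 target genes 1 passed, CEBPD, a C/EBP factor of the stress and inflammatory responses. It read 231, 463 and 412 without and 283, 910.4 and 759 with 4-OHT in fusion cells and 248, 129.7 and 340.1 without and 212, 174 and 395 with it in vector cells. The treated fusion arrays of replicates 2 and 3 were the highest of the 12. CEBPD rose by 0.91 ± 0.13 (SE, limma adjusted p = 0.0125) there, and over 12 arrays its change was 0.70 ± 0.48 (SE without pairing). With the pairs as a block that SE was 0.16 and the limma adjusted p 0.567. In vector replicates 2 and 3 it rose by 0.30 ± 0.13 (SE; limma unadjusted p = 0.0436). The difference of the 2 responses, 0.61 ± 0.18, did not pass (adjusted p = 0.312). No gene of these lists passed the adjusted test in vector cells in replicates 2 and 3. In the same fit the muscle differentiation factor MYOG fell by 2.74 in fusion cells (limma adjusted p = 0.00327), while in replicate 1 its signal was 13.4 without and 53.0 with 4-OHT. Over 12 arrays the MYOG change was -1.42 ± 0.85 (SE without pairing). With the pairs as a block its SE was 0.62 and its limma adjusted p 0.721. Its relation to the stress genes was not tested. The further tRNA synthetases were positive for 4-OHT in vector replicates 2 and 3 in 9 of 9, with a median of 0.16 and 0 calls (1 at an unadjusted p of 0.05). Over all genes 51% were positive there, and 5.7% of probe sets passed an unadjusted limma p of 0.05.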

How the data were processed

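Probe set signals of 12 Affymetrix arrays were used. The submitters' processing notes name GCOS and MAS5, and the deposited values are linear intensity signals; versions and scaling settings are not given in the sources used here. Of 22215 probe sets without the 68 controls, 19065 had 1 symbol, 1043 several and 2107 none. Signals were taken as log2(signal + 16), which understates changes of dim genes; the 40% with the lowest mean signal (under 36.7) were left out. Group means were fitted with limma 3.58.1 in R 4.3.3 (lmFit, eBayes with an intensity trend; two-sided, Benjamini-Hochberg over all 13329 tested). Unless a block is named, SE, intervals and unadjusted p over 12 arrays come from this fit without pairs. They therefore hold the spread between replicate pairs. The code was tested on simulated data. Deviations from group means correlated between same-numbered arrays of a construct at r = 0.85, 0.70 and 0.71 (fusion) and 0.79, 0.79 and 0.82 (vector), while different numbers gave -0.68 to 0.23, so numbers were taken to pair arrays; between constructs pairing was less clear. Named members were all 34, with every array's signal for up to 4 each way per comparison and 6 set genes. The members, lists and the fit to replicates 2 and 3 were chosen with earlier results of these data known. Figures used matplotlib 3.10.9. Settings varied were pseudocount, filter, normalization, trend, pairing, arrays and probe sets. Few arrays limit the precision.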

Additional observations from a re-analysis of the deposited data

Results flagged for a closer look

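MTHFD2, the mitochondrial folate enzyme, was flagged because its signal with 4-OHT was lower in all 3 fusion pairs and higher in all 3 vector pairs. The changes were -0.044, -0.28 and -0.16 in fusion and 0.27, 0.14 and 0.17 in vector cells. The difference of the responses was -0.35 ± 0.34 (SE without pairing), and limma did not call it. Its unadjusted p was 0.321 without pairing, and its adjusted p was 0.500 in replicates 2 and 3, paired. Opposite signs in all pairs of both constructs, in one sense or the other, occurred in 416 of 13329 probe sets (3.12%). MTHFD2 was the 1 member of 33 among them, a share close to that of all probe sets.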

How the results depend on the processing

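Over 12 arrays, 0 members and 0 probe sets were called in all 5 comparisons under every setting run, including other pseudocounts, filters and normalizations, the replicate block and the omission of each array. With replicates 2 and 3 alone and no replicate block, 1 probe set was called between constructs without and 13 with 4-OHT, and 0 members. The replicate block there gave 186 for 4-OHT in fusion cells, with 1 member, TRIB3, 0 in vector cells, 7 for the difference of the responses, 1 between constructs without and 21 with 4-OHT. That count of 186 became 37 without the filter and 17 without the trend, each with 0 members, and 206 after quantile normalization and 536 with the contrast's groups alone, each with 1 member. Under the same 4 settings in that order, the 7 became 0, 0, 18 and 7, the 21 became 4, 2, 17 and 98, and the 1 became 0, 1, 0 and 2. Without fusion pair 2 or pair 3, 0 probe sets were called for 4-OHT in fusion cells or for the difference. These 6 variants of the paired fit were added after the data had been seen, and the cause of the differences was not tested. Leaving out 1 array at a time moved the members' median from -0.16 to 0.076 for 4-OHT in fusion cells, from -0.015 to 0.097 in vector cells and from -0.17 to 0.11 for the difference. In vector cells the median was 0.025 after quantile normalization, 0.045 with that in the paired fit, 0.19 with equal array medians and 0.028 with probe sets averaged; the difference was -0.14 with equal medians. Without fusion pair 2 the paired difference was -0.14, and without pair 3 it was -0.13, with a fusion median of -0.15.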

Other observations

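Members with several probe sets did not always give 1 direction. For SLC7A11 the 3 probe sets had mean signals of 53.7, 49.5 and 48.7, so the brightest was hardly brighter than the rest. With 4-OHT in fusion cells, replicates 2 and 3, they differed by -0.40, -0.69 and -0.57, and in vector cells by -0.37, 0.18 and 0.49 (log2 scale, none past the adjusted threshold). The non-overlap of treated and untreated vector arrays given for SLC7A11 rests on the first of these. A second HSP90B1 probe set differed by -0.58 in fusion cells where the brightest differed by 0.093. HSPA5 and TRIB3 had 1 single-symbol probe set each.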
